A study of Mus musculus with 4 samples.

Results

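Adarb2 class nuclei are inhibitory neuron nuclei that carry RNA of Adarb2, a gene of interneurons born in the caudal ganglionic eminence, and they were picked here barcode by barcode from measured UMIs (unique molecular identifiers, counted as molecules). A barcode first had to hold at least 1000 UMIs, 200 to 2500 genes and at most 10% of UMIs from mitochondrial genes. It was a member with at least 2 UMIs of Gad1 and Gad2 together, at least 3 of Adarb2, at least 1 of Vip, Prox1, Lamp5, Reln or Npas1, none of Sst, Pvalb or Lhx6, at most 1 of Prlr, Baiap3 and Ano1 together and at most 1 of Rarb and Rgs9 together. This rule found 178 nuclei among 24446 filtered barcodes (0.728%) and among 2820 filtered barcodes that passed the Gad1 and Gad2 limit (6.31%). The working name was Vip and Lamp5 class interneurons, but 102 of the 178 nuclei held no UMI of Vip or of Lamp5, so they are called the Adarb2 class below.

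Cortical and hippocampal interneurons release GABA and arise mainly from the medial and the caudal ganglionic eminence of the embryonic brain. The medial eminence gives Sst and Pvalb cells, which inhibit dendrites and cell bodies of pyramidal neurons, while the caudal eminence gives Vip cells, many of which inhibit other interneurons, and Lamp5 cells, which include the neurogliaform cells with slow, diffuse GABA release. Adarb2, an RNA-binding relative of the RNA-editing deaminases, marks the caudal branch, and Prox1 and Npas1 are transcription factors active in it. Reln encodes reelin, a secreted protein that many superficial interneurons make.

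The nuclei came from whole brains of female 5XFAD mice, which carry human transgenes with familial Alzheimer's disease mutations, App among them, under the neuronal Thy1 promoter and model amyloid deposition. Every mouse carried the transgenes and received extracellular vesicles (EVs) in the vein at 7 to 10 weeks of age. The EVs were low in phosphatidylethanolamine (PE-low) in 2 libraries and high in it (PE-high) in the other 2, and 2 mice were pooled per library. Values given for 4 libraries follow the order PE-low-EV replicate 1, PE-low-EV replicate 2, PE-high-EV replicate 1 and PE-high-EV replicate 2. Libraries of vehicle-treated or non-transgenic mice were not analysed here, so every value below lies between the EV treatments or between classes of nuclei.

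The 4 libraries held 54, 59, 25 and 40 members. Their summed UMIs were 142927, 186445, 52224 and 72403, so that 1 UMI weighs most in PE-high-EV replicate 1. The median UMIs per nucleus were 2542.5, 2934, 1738 and 1598, and both PE-high-EV libraries were shallower than both PE-low-EV libraries. Mitochondrial genes took 3.78%, 3.86%, 4.31% and 4.16% of the members' UMIs. The members of different libraries shared no cell barcode in any of the 6 pairs of libraries. At the edge of the rule, 6 members held exactly 3 Adarb2 UMIs, and 6 further nuclei met every other limit with 2. Those just inside had 643 CPM (UMIs scaled to a common sum of 1e6) of Gad1, 483 CPM of Gad2 and 6273 CPM of Erbb4 in sum, and those just outside 301, 979 and 2938 CPM. Vip, Lamp5, Prox1, Reln and Npas1 stood at 0, 322, 0, 965 and 80.4 CPM just inside and at 0, 151, 226, 377 and 151 CPM just outside, so the genes went both ways. A further 155 nuclei had at least 3 Adarb2 UMIs and met the other limits without any UMI of Vip, Prox1, Lamp5, Reln or Npas1, and 50 were left out by a UMI of Sst, Pvalb or Lhx6.

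The values of the genes in the rule describe the members and were not tested. Adarb2 (chr13:8202866-8768747, plus strand, GRCm38) stood at 11334, 8120, 6893 and 9723 CPM. A member held a median of 15 Adarb2 UMIs and up to 192, and 113 of 178 held at least 10. Reln (chr5:21884454-22344702, minus strand) was the marker found in most members, with a UMI in 93 nuclei and levels of 938, 510, 1130 and 1174 CPM. Prox1 (chr1:190118035-190170714, minus strand) had a UMI in 54 members, Lamp5 (chr2:136052239-136069917, plus strand) in 43, Vip (chr10:5639218-5647617, plus strand) in 36 and Npas1 (chr7:16455721-16477728, minus strand) in 23. Most nuclei thus entered on a thin record, since 119 of 178 held UMIs of only 1 of these 5 genes. Npas1 and Lamp5 were the thinnest, as 3 of 23 and 8 of 43 holders had 2 or more UMIs, against 19 of 36 for Vip and 68 of 93 for Reln.

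Free RNA in the droplets was gauged from barcodes ranked 45000 to 90000 by UMIs and from nuclei that should lack these genes. Adarb2 stood at 9247 CPM in the summed members and at 49.5 CPM in the low-UMI barcodes, and Reln at 822 and 39.8 CPM. Vip stood at 198 and 96.3 CPM, and Lamp5 at 115 and 106 CPM, so the members' sum of Lamp5 lay close to that of free RNA. After each nucleus was thinned to 1000 UMIs, Lamp5 had a UMI in 7.30% of members and 1.35% of 222 oligodendrocyte nuclei, Vip in 14.6% and 0.901%, and Reln in 41.0% and 0.901%. Without thinning these genes had a UMI in 24.2%, 20.2% and 52.2% of the members, whose median depth was 2400 UMIs, while the oligodendrocyte nuclei had medians of 1250, 1299, 1281 and 1275 UMIs in the 4 libraries. Prox1, which oligodendrocytes are known to express too, had a UMI in 13.5% of thinned members and in 9.46% of thinned oligodendrocyte nuclei, which is the smallest gap of the 5 genes by ratio.

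**Figure D1:**
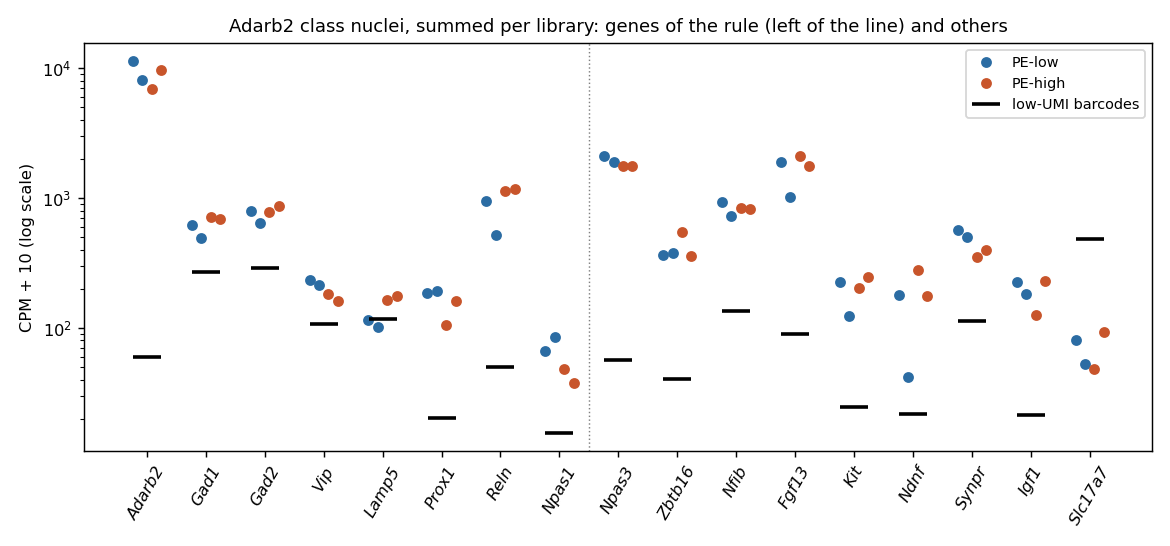
Summed level of selected genes in Adarb2 class nuclei, as CPM plus 10 on a log axis, with 1 point per library (PE-low-EV blue, PE-high-EV orange) and a black bar at the level of the low-UMI barcodes over all libraries. Genes left of the dotted line belong to the rule. Lamp5 lies near its bar, Npas3 and Fgf13 lie well above theirs, and Slc17a7 lies below.

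Transcription factors of the caudal branch that the rule did not use were found with uneven depth. Npas3, a basic helix-loop-helix PAS factor, stood at 2085, 1904, 1762 and 1768 CPM, against 47.0 CPM in the low-UMI barcodes. Nfib, a nuclear factor I protein, stood at 931, 724, 823 and 815 CPM, and Zbtb16, a zinc finger factor, at 357, 370, 536 and 345 CPM. Both lay above the low-UMI barcodes, at 125 and 30.1 CPM. Sparse markers could not define the class at this depth: Nr2f2 had 21 UMIs in 17 members, Htr3a 5 UMIs in 4 and Sp8 4 UMIs in 3.

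The members split into 33 nuclei with Vip but not Lamp5, 40 with Lamp5 but not Vip, 3 with both, 73 with Reln and neither of these, and 29 with only Prox1 or Npas1. The Vip-holding nuclei had 1686 CPM of Synpr, a synaptic vesicle protein, 480 CPM of Igf1, a growth factor, and 96 CPM of Tac2, a tachykinin. Lamp5-holding nuclei had 137, 117 and 0 CPM of the same genes. In turn, Lamp5-holding nuclei had 635 CPM of Npy, neuropeptide Y, 371 CPM of Sv2c, a synaptic vesicle glycoprotein, and 98 CPM of Hapln1, a matrix link protein, where Vip-holding nuclei had 123, 110 and 0 CPM. The Reln subgroup had the top level of Ndnf, a secreted neurogliaform marker, with 236 CPM against 88 CPM in Lamp5-holding and 14 CPM in Vip-holding nuclei. Reln nuclei also had 787 CPM of Cnr1, the cannabinoid receptor of Cck basket cells. Vip-holding, Lamp5-holding and the 29 nuclei with only Prox1 or Npas1 had 329, 127 and 396 CPM, and the 3 nuclei with both 815 CPM. Other markers listed with Cnr1 did not set the Reln nuclei apart. Sncg was at 0 CPM, and Cck and Col25a1 stood at 294 and 577 CPM against 281 and 702 CPM in the 29 nuclei. Meis2, Pbx3 and Foxp2, transcription factors of lateral ganglionic eminence and olfactory cells, stood at 970, 753 and 434 CPM in the 29 nuclei with only Prox1 or Npas1. The same genes stood at 459, 313 and 293 CPM in Lamp5-holding, at 95.9, 68.5 and 68.5 CPM in Vip-holding and at 126, 131 and 15.7 CPM in Reln nuclei. Other genes of that list did not follow them. Tshz1, Six3 and Th were at 0 CPM in the 29 nuclei, while Tshz1 stood at 107 CPM in Lamp5-holding and 73.5 CPM in Reln nuclei. Dcx was at 115 CPM against 97.7, 82.2 and 94.5 CPM in Lamp5-holding, Vip-holding and Reln nuclei. Synpr was at 281 CPM, under its level in Vip-holding nuclei. The 29 nuclei had 3396 CPM of Erbb4 where the subgroups with Vip, Lamp5 or Reln had 6116 to 7110 CPM. Sox6, a medial eminence factor, stood at 523 CPM in the 29 nuclei. It stood at 123, 19.5 and 99.7 CPM in Vip-holding, Lamp5-holding and Reln nuclei. Maf, a further medial eminence factor, was at 255 CPM against 233, 176 and 252 CPM. These levels are sums over the libraries with no replicate error, and a subgroup of so few UMIs per gene is given as a description.

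Markers of most other cell types lay below the low-UMI barcodes in sum. The 8 excitatory neuron markers were each found and summed to 658, 617, 689 and 566 CPM in the 4 libraries against 3126 CPM in the low-UMI barcodes, with Camk2a the most abundant. Slc17a7, the vesicular glutamate transporter of cortex, had 1 UMI in each of 26 members. The 6 oligodendrocyte markers summed to 1028, 526, 517 and 525 CPM against 3473 CPM in the low-UMI barcodes. All 6 microglia markers had a UMI and summed to 154, 118, 115 and 276 CPM against 556 CPM, and 5 of 6 astrocyte markers summed to 665, 429, 460 and 428 CPM against 2086 CPM, with Slc1a2 the most abundant and Aldh1l1 at 0. The 4 endothelial markers summed to 28.0, 16.1, 134 and 0 CPM against 33.6 CPM, so that PE-high-EV replicate 1 lay above the low-UMI barcodes, with Ly6c1 the most abundant. The 4 haemoglobin genes summed to 42.0, 26.8, 57.4 and 0 CPM against 265 CPM. The oligodendrocyte precursor list lay above the low-UMI barcodes in 3 libraries, with 161, 91.2, 19.1 and 110 CPM against 42.0 CPM, and Vcan, which neurons also express, led it. Of the 8 lateral ganglionic eminence and olfactory markers, 7 had a UMI and summed to 1553, 1378, 843 and 1575 CPM against 529 CPM, led by Synpr, which Vip cells express too, and with Th at 0. Doublets were not called, and the part of free RNA or of such neighbouring classes in the results below was not tested.

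The share of Adarb2 class nuclei was first compared between the EV treatments. Members made up 0.775% and 1.02% of filtered barcodes in the PE-low-EV libraries, with exact (Clopper-Pearson) 95% binomial intervals of 0.583% to 1.01% and 0.781% to 1.32%. In the PE-high-EV libraries they made up 0.441% and 0.661%, with intervals of 0.286% to 0.651% and 0.472% to 0.898%. The groups did not overlap, with means of 0.551% ± 0.155 (SD, n = 2) and 0.900% ± 0.177 (SD, n = 2), but the two-sided exact permutation test gave p = 0.33, the smallest value that 2 libraries against 2 can give. Among barcodes with Gad1 and Gad2 the direction turned, with 6.65% ± 1.51 in PE-high-EV and 6.11% ± 0.60 in PE-low-EV libraries (SD, n = 2, exact permutation p = 1.0). After all barcodes were thinned to 1000 UMIs the shares were 0.201% and 0.191% in PE-low-EV and 0.194% and 0.297% in PE-high-EV libraries (exact permutation p = 0.667). Among the thinned barcodes that kept at least 2 UMIs of Gad1 and Gad2 the shares were 4.09% and 4.98% in PE-low-EV and 5.45% and 7.32% in PE-high-EV libraries, which also did not overlap but ran the other way (exact permutation p = 0.33, again the smallest possible). The direction of the share thus depended on the depth and the denominator, and these intervals cover counting error only.

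**Figure D2:**
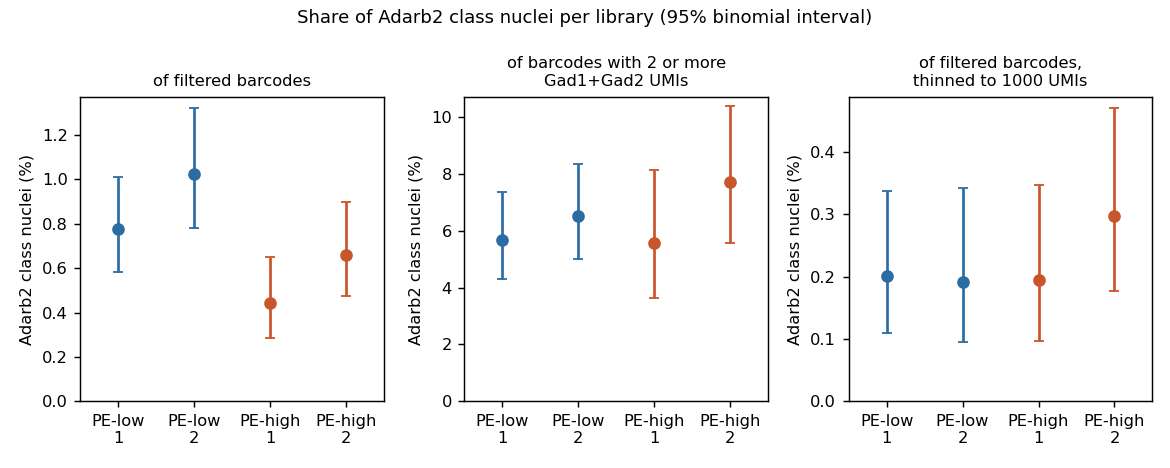
Share of Adarb2 class nuclei in each library, in percent of filtered barcodes (left), of barcodes with Gad1 and Gad2 (middle) and of filtered barcodes thinned to 1000 UMIs (right). Bars are 95% binomial intervals, and the PE-low-EV libraries lie above the PE-high-EV libraries in the left panel only.

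Which genes set the Adarb2 class apart from the Sst and Pvalb class was tested on UMIs summed per library and class, with the library as a block. The reference class had Gad1 and Gad2 as above, at least 3 UMIs of Sst, Pvalb and Lhx6 together and at most 1 of Adarb2, and held 49 nuclei, of which 14 and 22 were in PE-low-EV and 4 and 9 in PE-high-EV libraries. It was mostly an Sst group, with 215 UMIs of Sst, 22 of Lhx6 and 17 of Pvalb, and its nuclei had more mitochondrial UMIs, at 4.51%, 5.20%, 6.02% and 4.48%. Their median UMIs were 3345.5, 3327.5, 1699 and 2094, and the part of depth and mitochondrial share in the calls was not tested. Of 1022 genes tested, 97 were higher (9.49%) and 83 lower (8.12%) in the Adarb2 class by edgeR's quasi-likelihood test at a Benjamini-Hochberg adjusted p under 0.1, the threshold used throughout. Genes of the rule and mitochondrial genes were left out of the test. Without PE-low-EV replicate 2 the higher calls numbered 63, and without PE-high-EV replicate 2 the lower calls numbered 53. DESeq2 gave 49 lower calls, the 3% limit on mitochondrial UMIs that the study used left 24 higher and 19 lower calls, and a reference gate of at least 1 UMI of Sst, Pvalb or Lhx6, added after the data were seen, gave 203 and 196. With no filter on low genes 180 genes passed, of which 102 were among the 180 main calls in the same direction.

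Transcription factors of interneuron origin divided the classes. Nfib was at 931, 724, 823 and 815 CPM in the Adarb2 class and at 91.3, 0, 0 and 88.6 CPM in the Sst and Pvalb class, so that the classes did not overlap in any library. Its log2 difference was 4.22 ± 0.48 (SE). The Sst and Pvalb sums of Nfib rest on 4, 0, 0 and 2 UMIs. It had enough UMIs for a test through the Adarb2 class, so no p is given for it. Sox6, which medial eminence interneurons need to mature, was at 98.0, 263, 153 and 0 CPM in the Adarb2 class and at 1096, 835, 1569 and 487 CPM in the Sst and Pvalb class, and fell by 2.79 ± 0.35 on the log2 scale (edgeR adjusted p = 1.3e-07). Inside the Adarb2 class Sox6 was highest in the nuclei with only Prox1 or Npas1, at 523 CPM. Of 8 caudal eminence factors listed, 3 had enough UMIs for a test and all 3 rose, with a median log2 difference of 1.76 beside -0.00074 over all tested genes. They were Nfib, Zbtb16 (1.76 ± 0.37) and Npas3 (0.59 ± 0.23). Nfib and Zbtb16 were sparse in the Sst and Pvalb class, with means of 45.0 and 111 CPM against 823 and 402 CPM in the Adarb2 class. Genes can have enough UMIs for a test through 1 class alone, so the counts of these lists are given as a description. Of 7 medial eminence factors, 2 were tested. Sox6 fell, while Maf had a log2 difference of -0.21 ± 0.36 and an edgeR adjusted p of 0.836. Dlx6os1, a long noncoding RNA of the Dlx5 and Dlx6 locus, rose by 2.48 ± 0.40, but reads of the overlapping Dlx6 gene may count toward it, since the strand setting of the counting is not given in the sources used here.

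**Figure D3:**
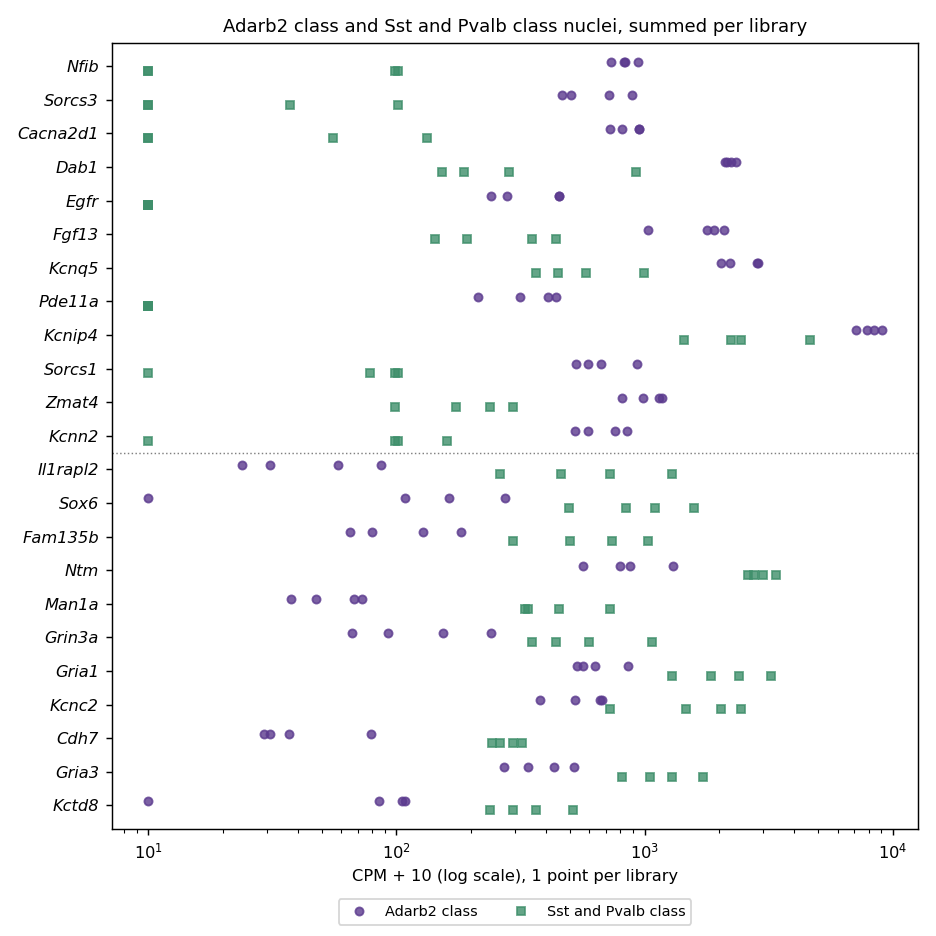
CPM plus 10 on a log axis for genes with the smallest p in each direction between the Adarb2 class (purple circles) and the Sst and Pvalb class (green squares), with 1 point per library. Genes above the dotted line were higher in the Adarb2 class and genes below it lower, and Egfr and Pde11a were at 0 in each Sst and Pvalb sum.

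Egfr and Pde11a were found in the Adarb2 class and not in the reference nuclei. Egfr, the epidermal growth factor receptor, was at 441, 268, 230 and 442 CPM in the 4 Adarb2 sums and at 0 in the 4 Sst and Pvalb sums. Set against a floor of 3 UMIs over the reference class (20.5 CPM), its pooled level of 346 CPM was at least 16.9-fold higher. Pde11a, a phosphodiesterase of cAMP and cGMP, was at 399, 204, 306 and 428 CPM against 0 and was at least 15.3-fold higher. Both genes had enough UMIs for a test through the Adarb2 class alone, so no p is given for them. With 49 reference nuclei, these zeros limit the level of both genes and do not show that they were absent.

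Further genes with a small p are named next. Dab1, the adaptor that passes the reelin signal into the cell, was at 2225, 2108, 2145 and 2334 CPM in the Adarb2 class and at 913, 274, 143 and 177 CPM in the Sst and Pvalb class, and its log2 difference was 2.46 ± 0.31. Fgf13, an intracellular fibroblast growth factor that binds sodium channels, differed by 2.54 ± 0.32, and the Vps10 sorting receptors Sorcs3 and Sorcs1 by 4.11 ± 0.48 and 3.0 ± 0.41. All 4 passed, and in each the lowest Adarb2 sum lay above the highest Sst and Pvalb sum. The Sst and Pvalb sums held only 4, 2, 0 and 0 UMIs of Sorcs3 and 4, 5, 0 and 2 of Sorcs1, so these 2 differences are given as a description. Cnr1, the cannabinoid receptor, rose by 2.85 ± 0.42, Adra1a, an adrenergic receptor, by 2.06 ± 0.39 and Chrna7, a nicotinic acetylcholine receptor subunit, by 2.83 ± 0.59. These genes were sparse in the Sst and Pvalb class, with means of 54.1, 94.6 and 47.7 CPM against 453, 432 and 230 CPM. For Chrna7 the SD over those reference sums was 86.5 CPM, above its mean. Chrm3, a muscarinic receptor, fell by 0.92 ± 0.28.

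Of 17 ionotropic glutamate receptor subunits 13 were tested, with 4 lower, 1 higher and a median of -0.32, where 8.12% of all tested genes were lower and 9.49% higher. Gria1, an AMPA receptor subunit, was at 623, 847, 555 and 525 CPM in the Adarb2 class and at 1849, 2396, 1284 and 3233 CPM in the Sst and Pvalb class, without overlap, and fell by 1.75 ± 0.25 (edgeR adjusted p = 9.8e-07). Gria3, a further AMPA subunit, fell by 1.53 ± 0.28, Grin3a, an NMDA subunit that lowers calcium entry, by 2.35 ± 0.33 and Grik3, a kainate subunit, by 2.15 ± 0.44. Grik2, another kainate subunit, was the member that rose, by 0.73 ± 0.22. Of 14 GABA receptor subunits 8 were tested, and 2 passed as higher beside the 9.49% of all tested genes, Gabrb2 (1.5 ± 0.33) and Gabrg3 (0.87 ± 0.26). In the list of GABA synthesis and transport 2 of 7 genes were tested and both missed the threshold, among them Abat, which breaks GABA down, with a log2 difference of -0.18 ± 0.42.

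Ion channels and adhesion genes split in both directions, and their counts stand beside 9.49% higher and 8.12% lower over all tested genes. Of 25 potassium channel genes 14 were tested, 4 were higher and 3 lower. Kcnq5, a subunit of the M current, was at 2211, 2837, 2030 and 2859 CPM against 982, 438, 570 and 354 CPM and rose by 2.13 ± 0.28, and Kcnip4, a partner of A-type channels, rose by 1.63 ± 0.22. Kcnc2, a channel for fast repolarisation that fast-spiking cells use, was at 371, 515, 651 and 663 CPM against 2032, 1465, 713 and 2436 CPM and fell by 1.70 ± 0.27 (edgeR adjusted p = 7.3e-06). Its highest Adarb2 sum lay just under its lowest Sst and Pvalb sum. Kcnn2, a calcium-activated channel outside that list, was higher by 2.58 ± 0.38. Of 16 sodium, calcium and HCN channel genes 11 were tested, with 1 higher and 1 lower. Cacna2d1, an accessory calcium channel subunit, was higher by 3.56 ± 0.42, and the related Cacna2d3 was lower (-0.74 ± 0.27). The Cacna2d1 difference rests on 2, 9, 0 and 0 UMIs in the Sst and Pvalb sums. Of 26 synaptic adhesion genes 24 were tested, with 4 higher and 5 lower. Erbb4, the neuregulin receptor of interneurons, rose by 1.70 ± 0.25, while Il1rapl2 fell by 3.83 ± 0.41, from 251, 452, 713 and 1284 CPM in the Sst and Pvalb class to 21, 48.3, 76.6 and 13.8 CPM in the Adarb2 class. Of 22 axon guidance genes 12 were tested and 2 rose, the semaphorin Sema5a (2.71 ± 0.52) and the netrin receptor Unc5c (0.90 ± 0.29).

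Because the Sst and Pvalb class was small, the members were also set against the 2642 other filtered barcodes with Gad1 and Gad2, a reference added after these counts were seen. It mixes inhibitory types, and holds the Sst and Pvalb nuclei and striatal projection neurons. It also holds the 155 and 50 nuclei with at least 3 Adarb2 UMIs named above, so that nuclei with Adarb2 stand on both sides. Of 7131 genes tested, 402 were higher (5.64%) and 520 lower (7.29%) in the Adarb2 class (edgeR adjusted p under 0.1). DESeq2 gave 264 and 285 calls, and the 3% mitochondrial limit 202 and 230. Of the 8 caudal eminence factors 6 were tested and 6 rose, and their median log2 difference was 1.99 beside -0.0083 over all tested genes. Of the 7 medial eminence factors 4 were tested, of which Maf rose by 1.81 ± 0.22 and Satb1, a chromatin organiser, fell by 1.71 ± 0.42, while Sox6 (-0.46 ± 0.25) and Etv1 (-0.25 ± 0.41) missed the threshold. Npas3 differed by 2.50 ± 0.12, Nfix by 1.80 ± 0.25 and Tox2 by 1.36 ± 0.31. Of 12 Lamp5 type markers 9 were tested and 6 rose, among them Ndnf (4.13 ± 0.39) and Kit (3.15 ± 0.27), a receptor tyrosine kinase. Of 12 Vip type markers 3 were tested. Igf1 (3.58 ± 0.26) and Synpr (1.48 ± 0.17) rose, and Penk, the enkephalin precursor, fell by 1.02 ± 0.28. Sema3c, a secreted semaphorin, rose by 3.19 ± 0.27 and Slit3, a repulsive guidance ligand, fell by 3.6 ± 0.23. Of 8 striatal projection neuron markers 7 were tested and 6 fell, Drd2 the furthest by 3.18 ± 0.51. The rule limited Rarb and Rgs9, genes of those neurons, together to 1 UMI in a member, so these values are given as a description, and the part of that limit in them was not tested.

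Several genes changed sides with the reference, while the members' own values stayed the same. Npy was at 469, 188, 345 and 262 CPM in the members and differed by -0.80 ± 0.29 from the Sst and Pvalb class and by 1.76 ± 0.19 from the other barcodes. Meis2 was at 294, 370, 268 and 401 CPM and differed by 1.72 ± 0.41 and by -1.58 ± 0.16. Nrg1, a ligand of the Erbb4 receptor, differed by 1.31 ± 0.32 and by -1.39 ± 0.13, and Chrm3 by -0.92 ± 0.28 and by 0.66 ± 0.15. All 8 differences passed the threshold by edgeR. Nfib, Fgf13, Cnr1 and Erbb4 were higher, and Gria1, Gria3 and Il1rapl2 lower, against both references. Other genes that passed against the Sst and Pvalb class missed the threshold against the other barcodes, where Kcnq5 differed by 0.24 ± 0.12, Sorcs1 by 0.27 ± 0.15, Sox6 by -0.46 ± 0.25, Kcnc2 by -0.18 ± 0.15 and Grin3a by -0.03 ± 0.25 (edgeR adjusted p = 0.275, 0.334, 0.325, 0.605 and 0.971).

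Within the Adarb2 class, the 33 Vip-holding nuclei were compared with the 40 Lamp5-holding nuclei, again on sums per library with the library as a block. The nuclei numbered 9, 15, 3 and 6 for Vip and 11, 14, 6 and 9 for Lamp5. Of 218 genes with enough UMIs, 36 were higher (16.5%) and 32 lower (14.7%) in Vip-holding nuclei by edgeR at an adjusted p under 0.1, and the median log2 difference over all tested genes was 0.089. At the 3% limit on mitochondrial UMIs that the study used, 1 Vip-holding nucleus was left in each PE-high-EV library, 82 genes were tested and no gene passed. Leaving out nuclei with Slc17a7 or Slc17a6 UMIs gave 38 calls against 68. With no filter on low genes 63 passed, of which 34 were among the 68 in the same direction. Leaving out PE-low-EV replicate 1 gave 20 lower calls and leaving out PE-high-EV replicate 1 gave 50.

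The genes of the synaptic adhesion list that passed were higher in Vip-holding nuclei, while Nxph1, Ptprm and Dscaml1, adhesion-related genes outside that list, were lower. Cntn4, a contactin, was at 2584, 2816, 1178 and 1171 CPM in Vip-holding and at 321, 439, 534 and 445 CPM in Lamp5-holding nuclei and rose by 2.29 ± 0.38 (edgeR adjusted p = 0.00015). Hs6st3, a heparan sulfate sulfotransferase, was at 2878, 1559, 1620 and 958 CPM against 356, 301, 305 and 390 CPM and rose by 2.41 ± 0.36. The groups did not overlap in either gene. Of 26 synaptic adhesion genes 13 were tested, 7 rose and none fell, with a median of 0.81, where 16.5% of all tested genes were higher and 14.7% lower. The receptor lists held 1 higher and 2 lower of 8 ionotropic glutamate, 2 higher and 1 lower of 3 metabotropic glutamate and 0 higher and 2 lower of 5 GABA receptor genes tested. Ptprd, a receptor phosphatase that organises synapses, rose by 1.47 ± 0.33. Grm7 (1.58 ± 0.35) and Grm8 (1.87 ± 0.52), presynaptic metabotropic receptors, rose, as did Sorcs1 (2.69 ± 0.44). Npas3 rose by 1.36 ± 0.41, in 3 of 4 libraries.

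Lamp5-holding nuclei were higher in another set. Nxph1, a secreted neurexin ligand, was at 2422, 994, 1525 and 2449 CPM in Lamp5-holding and at 117, 0, 0 and 319 CPM in Vip-holding nuclei, a log2 difference of -4.34 ± 0.52. Ptprm, an adhesive receptor phosphatase, was at 1959, 1341, 992 and 1725 CPM against 58.7, 126, 0 and 0 CPM. In both genes the lowest Lamp5 sum lay above the highest Vip sum. The Vip-holding sums held only 2, 0, 0 and 3 UMIs of Nxph1 and 1, 5, 0 and 0 of Ptprm. Both genes had enough UMIs for a test through the Lamp5-holding nuclei, so no p is given for them. Unc5c fell by 2.33 ± 0.36 in Vip-holding nuclei, while Dcc, which also binds netrin, rose by 1.25 ± 0.42. Nfib fell by 1.82 ± 0.38, Fgf13 by 1.43 ± 0.35 and Cacna2d1 by 1.74 ± 0.37, so these genes, higher in the whole class than in Sst and Pvalb nuclei, were unequal inside it. Gabrg3 fell by 1.24 ± 0.34, Grin2a by 1.56 ± 0.39 and Grm5 by 1.04 ± 0.34. The median depth was 1953 UMIs in Vip-holding and 2343 UMIs in Lamp5-holding nuclei, and the part of depth and free RNA in these differences was not tested.

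**Figure D4:**
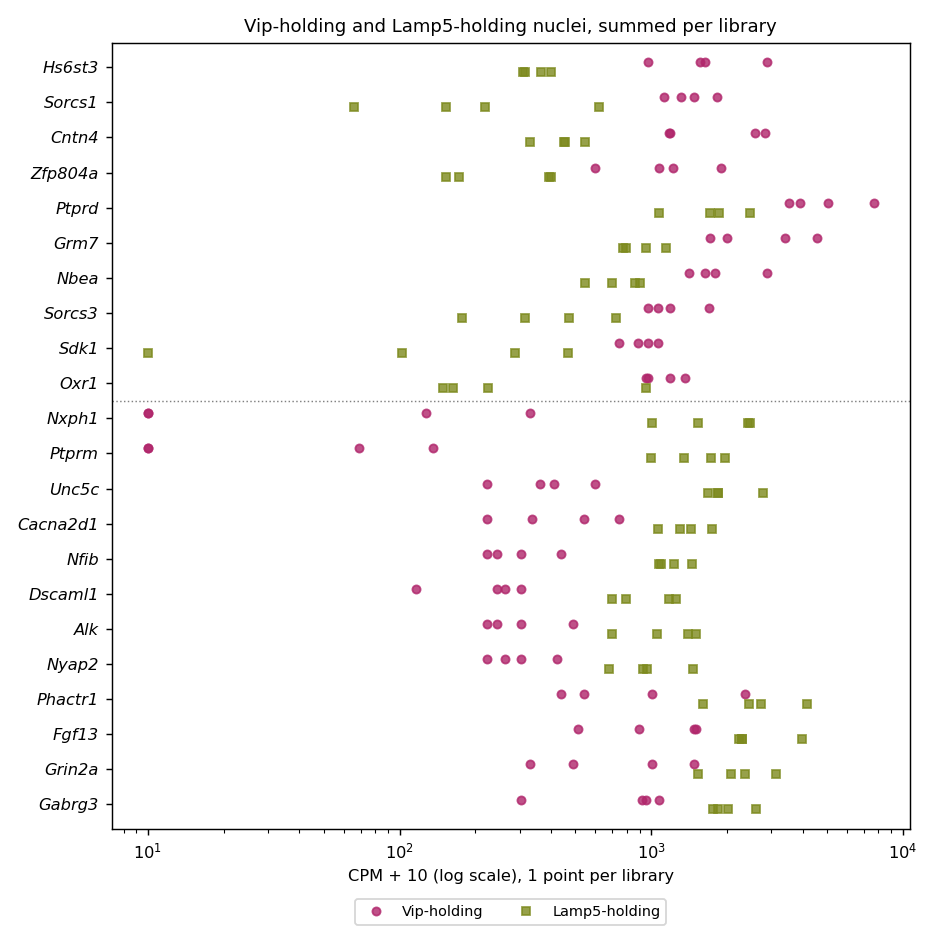
CPM plus 10 on a log axis for genes with the smallest p in each direction between Vip-holding (pink circles) and Lamp5-holding nuclei (olive squares), with 1 point per library. Genes above the dotted line were higher in Vip-holding nuclei, and Nxph1 and Ptprm show the widest gaps below it.

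No gene passed the test between PE-high-EV and PE-low-EV libraries within the Adarb2 class. Of 2213 genes tested, 0 passed (0.0%) by edgeR at an adjusted p under 0.1, the smallest adjusted p was 0.780, and DESeq2 also called 0. An unadjusted p under 0.05 was reached by 98 genes, where 110.65 are expected by the number tested alone, and 42 of them were higher under PE-high-EVs. The values of the 2 groups did not overlap for 771 genes (34.8%). The median log2 difference over all tested genes was 0.0017. With 1 library left out some genes passed, namely 3 higher and 3 lower without PE-low-EV replicate 1, 0 and 1 without PE-high-EV replicate 1, and 4 and 3 without PE-high-EV replicate 2. A group then holds 1 library, which is assumed to vary like the libraries of the other group.

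The genes with the smallest p among those whose groups did not overlap are named as not passing. Zfp804b, a zinc finger gene, was at 553 and 569 CPM under PE-low-EVs and at 1551 and 1091 CPM under PE-high-EVs, a log2 difference of 1.23 ± 0.25 (edgeR adjusted p = 0.780). Its adjusted p passed the threshold without PE-low-EV replicate 1 and without PE-high-EV replicate 2, fits in which 1 group has 1 library and the spread comes from the other group. The ribosomal protein genes Rpl30 and Rps21 had log2 differences of 1.66 ± 0.37 and 1.56 ± 0.36, from 11 to 19 UMIs per library, and Cep112, a centrosomal gene, 1.37 ± 0.36. On the other side, Adarb1, the RNA-editing relative of Adarb2, was at 161 and 166 CPM under PE-low-EVs and at 38.3 and 41.4 CPM under PE-high-EVs, a log2 difference of -1.99 ± 0.48 (edgeR adjusted p = 0.780). Those PE-high-EV values rest on 2 and 3 UMIs. Unc13c, a presynaptic priming protein, had 16 and 19 UMIs against 0 and 1, Slc44a5, a choline transporter-like gene, a difference of -1.20 ± 0.34 and Cdh12, a cadherin, -1.22 ± 0.37.

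**Figure D5:**
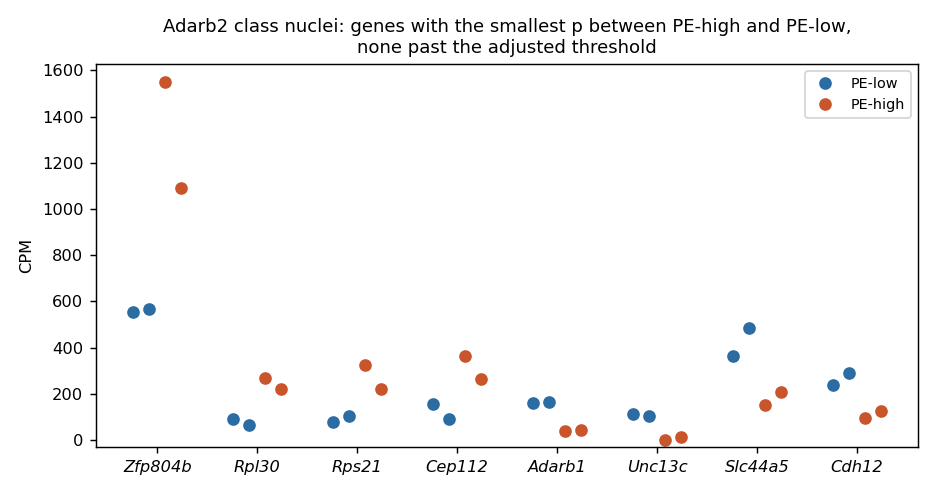
CPM in Adarb2 class nuclei for the 4 genes with the smallest p in each direction between PE-high-EV (orange) and PE-low-EV (blue) libraries, 1 point per library. These 8 genes were chosen for a small p and for groups that do not overlap, and none passed the adjusted threshold.

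Gene groups tied to the treatment or to amyloid did not pass either. In phosphatidylethanolamine metabolism, 10 of 12 genes had a UMI and Etnk1, the ethanolamine kinase, was the gene deep enough for a test. It was at 224 and 247 CPM under PE-low-EVs and at 172 and 221 CPM under PE-high-EVs, a difference of -0.23 ± 0.33. Of 18 unfolded protein response genes 6 were tested, from Hspa5 at -0.28 ± 0.66 to Atf6 at 0.63 ± 0.49. Of 13 genes of App and its processing 4 were tested, and mouse App was at 686 and 719 CPM against 632 and 649 CPM, a difference of -0.12 ± 0.25. The groups did not overlap in App, but the difference was under its error, and whether reads of the human App transgene count toward it was not tested. Of 19 nuclear genes of oxidative phosphorylation 13 were tested with a median of 0.44, and the share of mitochondrial UMIs in the members' sum was higher in both PE-high-EV libraries, as given above, whereas its median over members was 3.53%, 3.56%, 4.2% and 3.35% in the 4 libraries. Whether that share bears on these genes was not tested. Of 20 immediate early genes 1 was deep enough for a test, and their sum of 286 CPM lay below the 1101 CPM of the low-UMI barcodes.

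Among genes of interneuron identity, all 5 tested caudal eminence factors missed the threshold with log2 differences from -0.16 to 0.56, and the 5 tested Lamp5 type markers from -0.09 to 1.18. Maf, a transcription factor of interneurons, had the smallest p in these lists, with 287 and 257 CPM under PE-low-EVs, 115 and 124 CPM under PE-high-EVs and a difference of -1.15 ± 0.36 (edgeR adjusted p = 0.963). The 13 tested ionotropic glutamate receptor subunits had a median of 0.09, the 10 GABA receptor subunits 0.14, the 20 potassium channels 0.12 and the 23 adhesion genes -0.07.

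Whether the response to PE-high-EVs differed between the Adarb2 class and the Sst and Pvalb class was tested by an interaction term over the 8 sums. Of 1476 genes tested, 0 passed (0.0%) by edgeR and 0 by DESeq2, with 71 genes at an unadjusted p under 0.05 and a smallest adjusted p of 0.163. With the reference gate of at least 1 UMI, 1 gene passed as higher and 2 as lower. Erbb4, with an interaction of 1.49 ± 0.42 on the log2 scale, and Sema6d, a semaphorin, with -2.32 ± 0.61, shared that value. The 4 nuclei of the Sst and Pvalb class in PE-high-EV replicate 1 held 7012 UMIs, which limits this comparison.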

How the data were processed

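Nuclear RNA was counted in 10x 3' droplets (v3.1). The authors deposited raw UMI counts per gene and barcode for each library, made with Cell Ranger 7.1.0 on mm10, with no normalization or filter. Gene and barcode files, as deposited, give names, a unit other than counts. The files held 41470611, 43272337, 32515094 and 29472021 UMIs, in the library order above. Of 32285 gene identifiers, 32158 matched GENCODE M21 (GRCm38), the source of positions.

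The members and gene lists were chosen with earlier results of these data known. Counts of members were summed per library, filtered (filterByExpr), scaled by TMM and tested with edgeR 4.0.16 (R 4.3.3). CPM were UMIs divided by the same sum, times 1e6. DESeq2 1.42.0 was an alternative. Tests were checked on simulated counts whose spread was set and not estimated from these sums. Between treatments, 32.16% of genes with a simulated log2 change of 1 were recovered, with 3 false calls. At a log2 change of 2, 92.55% were recovered, with 20 false calls. Separate libraries from pooled mice were the replicates. Named genes were the 12 (4 between treatments) with the smallest p in each direction, of 1 sign in all 4 libraries or without overlap, and examples from each list. Same-numbered libraries did not deviate together (r = -0.012), so no block was used between treatments. A few named items are not reported here.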

Additional observations from a re-analysis of the deposited data

How the results depend on the processing

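No gene chosen by the naming rule reversed its sign under the alternatives to each comparison. With the other Gad1 and Gad2 barcodes as the reference, Npy, Meis2, Nrg1 and Chrm3 changed sign, and Kcnq5, Sorcs1, Sox6, Kcnc2 and Grin3a missed the threshold, as given above. Between the treatments, 0 genes passed at an adjusted p of 0.05, with DESeq2, with no filter on low genes, at a mitochondrial limit of 3%, with no upper limit on genes, without nuclei with Slc17a7 or Slc17a6 UMIs, at 5 or more Adarb2 UMIs, with the replicate number as a block (0 higher, 0 lower) and with crossed numbers. Leaving out 1 library gave 0 to 4 higher and 0 to 3 lower calls.

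Against the Sst and Pvalb class, DESeq2 gave 49 lower calls, no filter on low genes 44, and the 3% limit 24 higher and 19 lower calls among 341 genes, with no reference nucleus left in PE-high-EV replicate 1. Leaving out 1 library gave 63 to 118 higher and 53 to 103 lower calls. Dropping the library block gave 99 and 89. The following references were added after the data were seen. A gate of at least 1 UMI of Sst, Pvalb or Lhx6 gave 203 higher and 196 lower calls, and the other Gad1 and Gad2 barcodes gave 402 and 520. For the latter, DESeq2 gave 264 and 285 calls and the 3% limit 202 and 230. With the 1 UMI gate the interaction had 1 higher and 2 lower calls.

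Between Vip-holding and Lamp5-holding nuclei, no filter on low genes gave 20 higher calls, the 3% limit 0 and 0, and leaving out nuclei with Slc17a7 or Slc17a6 UMIs 16 higher calls. Leaving out 1 library gave 24 to 41 higher and 20 to 50 lower calls, and dropping the library block 39 and 32. The causes of these moves were not tested.

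The share of members, -0.349 percentage points between treatments, was 0.546 among Gad1 and Gad2 barcodes, 0.050 after thinning and 1.85 among thinned Gad1 and Gad2 barcodes, and ranged from -0.474 to -0.224 with 1 library left out. Counted over named genes and alternatives together, 4 results missed the threshold against the Sst and Pvalb class and 11 between the Vip and Lamp5 subgroups. Between treatments 4 such results newly passed, all with 1 library left out. Depth limits the tests. Most list genes had too few UMIs for a test in each comparison except that with the other Gad1 and Gad2 barcodes.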
